A study of Caenorhabditis elegans with 8 samples.

Results

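Gene expression was compared between whole hel-1 mutant worms and wild-type worms of Caenorhabditis elegans, using the 2 hel-1 and the 2 wild-type RNA-seq libraries, which are 4 of the 8 libraries of the series. The wild type is strain N2, and the mutant, strain IJ501, carries hel-1(gk148684); the labels do not say what kind of lesion this allele is, whether it removes all function, or how often the strain was outcrossed. All worms were day 1 adults grown at 20 °C. The labels describe the libraries of a genotype as independent biological repeats. The other 4 libraries come from daf-2(e1370), a mutant with weakened insulin/IGF-1 receptor function, and from the double mutant hel-1;daf-2 with both of these alleles, again with 2 libraries each. They were used here to ask how the same mutation acts in another genetic background, and they entered the scaling of levels and 1 alternative fit. The series asks how HEL-1 affects the transcription factor DAF-16.

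HEL-1 is a DEAD-box RNA helicase of the family that includes human DDX39 and UAP56, proteins known for their roles in splicing and in the export of mRNA from the nucleus. DAF-16, the worm FOXO factor, is held out of the nucleus when insulin/IGF-1 signalling is active and turns on stress resistance, metabolic and longevity genes when the signal is low. In worms on plentiful food the signal is active, so the comparison without daf-2 looks at the mutation where most DAF-16 targets are at their low level.

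The libraries of this comparison held between 32417545 and 37552513 expected counts, of which at least 99.95% fell in the 12988 genes that passed a filter on low counts. The 2 libraries of each genotype correlated across genes at r = 0.9954 in wild type and r = 0.9962 in hel-1, on log2(CPM + 1), where CPM, used for levels throughout, is a gene's count relative to the scaled size of its library. They differed from each other by more than counting error and were kept as separate replicates. The replicates were not alike in every tissue signal. The summed level of 91 sperm genes was 657 and 303 CPM in the wild-type libraries and 568 and 500 CPM in the hel-1 libraries, so replicate 2 of the wild type stood below the other 3.

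The transcript of hel-1 itself (chromosome II, 8326852 to 8328870, minus strand of WBcel235) was measured first. It stood at 618 and 601 CPM in wild type and at 565 and 526 CPM in hel-1. Both hel-1 libraries were below both wild-type libraries, as in 30.5% of all tested genes. The log2 fold change of -0.16 ± 0.07 (standard error) did not pass the test (adjusted p = 0.257). Gene-level counts do not show a change in the sequence of a transcript, so this level does not check the genotype. The daf-16 transcript was at 158 and 152 CPM in wild type and 153 and 168 CPM in hel-1, with a log2 fold change of 0.05 ± 0.06. The daf-2 transcript, which encodes the insulin/IGF-1 receptor, was at 109 and 116 CPM in wild type and at 107 and 118 CPM in hel-1.

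Most changes were increases. At an adjusted p under 0.05, 184 genes were higher in hel-1 (1.42% of the 12988 tested) and 29 were lower (0.223%), 213 in all (1.64%). The median change was 2.07-fold among the higher genes and 1.89-fold among the lower ones. Of the higher genes 96, and of the lower genes 12, changed by over 2-fold. None of the 213 had overlapping libraries, but this is a common state with 2 libraries a group: 30.0% of all tested genes had both hel-1 libraries above both wild-type libraries and 30.5% had both below. The counts rest on the choice of libraries. Without wild type replicate 2 they were 46 higher and 13 lower, and without hel-1 replicate 2 they were 59 and 32, while without hel-1 replicate 1 they were 395 and 86, and without wild type replicate 1 they were 276 and 24. In all 4 of these fits 30 of the higher and 7 of the lower genes stayed past the threshold. With the spread estimated from all 8 libraries of the series, 50 genes were higher (0.364% of 13722) and 7 lower, all of them among the 213.

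**Figure D1:**
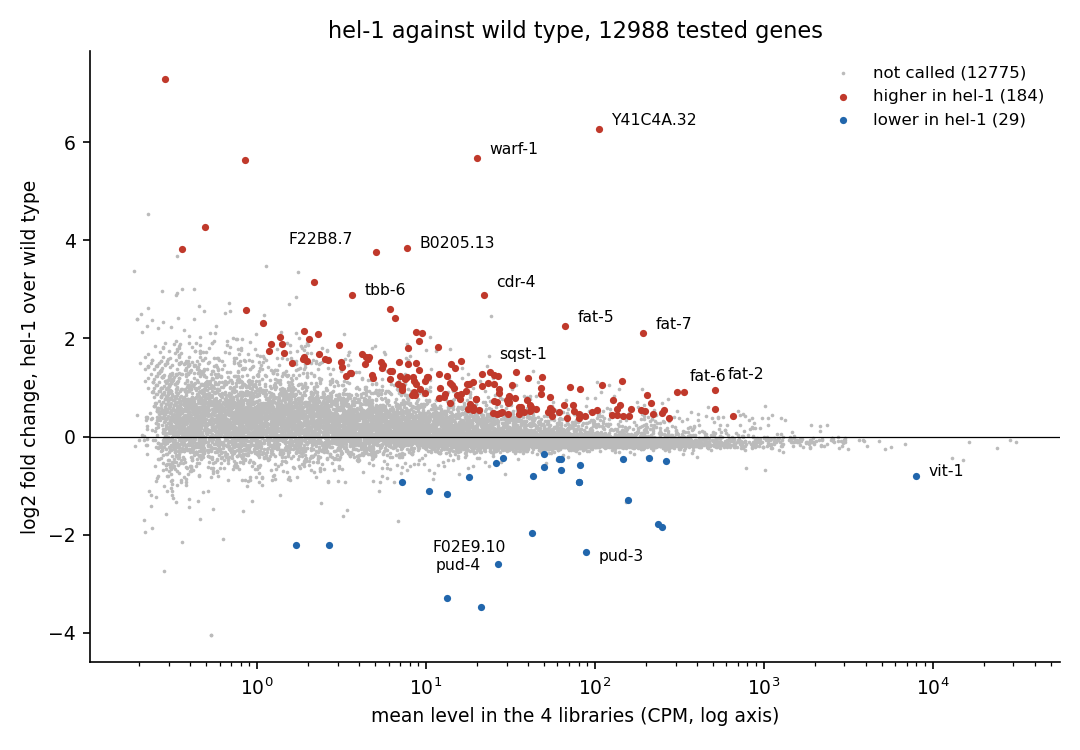
Log2 fold change of hel-1 over wild type against the mean level in the 4 libraries (CPM, log axis), each point a tested gene. The 184 genes that were higher (red) spread over all levels, and the 29 lower genes (blue) include vit-1, far to the right, and the pud genes; labels mark genes described in the text.

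Genes of fatty acid desaturases were higher in hel-1. These enzymes put double bonds into fatty acids: FAT-5, FAT-6 and FAT-7 make the first double bond in saturated chains, FAT-2 adds another to oleic acid, and FAT-1, FAT-3 and FAT-4 act later in the making of polyunsaturated fatty acids. All 7 genes were tested, and 4 were higher (57.1%, beside 1.42% of all tested genes) and none lower. The median log2 fold change of the 7 was 0.92, beside 0.01 over all tested genes.

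The palmitoyl-CoA desaturase gene fat-5 changed most, from 19.9 and 26.1 CPM in wild type to 95.8 and 124 CPM in hel-1. Both hel-1 libraries were several times above both wild-type libraries, a 4.78-fold difference (log2 fold change 2.26 ± 0.15, adjusted p = 0.0038). The stearoyl-CoA desaturase gene fat-7 stood at 86.8 and 57.4 CPM in wild type and at 308 and 318 CPM in hel-1. Here the wild-type libraries differed from each other and the hel-1 libraries nearly coincided, and the mean was 4.34-fold higher (adjusted p = 0.00917). Its close paralogue fat-6 was at 210 and 214 CPM in wild type and at 358 and 445 CPM in hel-1 (log2 fold change 0.92 ± 0.10, adjusted p = 0.0177). The gene for the oleate desaturase, fat-2, was at 361 and 334 CPM in wild type and at 567 and 785 CPM in hel-1. Its hel-1 libraries were the farthest apart of these genes, and its log2 fold change was 0.96 ± 0.14 (adjusted p = 0.0385).

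The later-acting desaturases did not pass the test. The log2 fold change was 0.19 ± 0.09 for fat-1 (adjusted p = 0.279), 0.40 ± 0.11 for fat-3 (adjusted p = 0.131) and 0.32 ± 0.11 for fat-4 (adjusted p = 0.184). Each had both hel-1 libraries above both wild-type libraries, a state that 30.0% of all tested genes had. Leaving out 1 library at a time gave between 2 and 6 higher desaturases: fat-5 and fat-7 passed in all 4 such fits, fat-6 in 3 and fat-2 in 2. The lower count came without wild type replicate 2. Reads of fat-5 from an overlap of 28 exon bases with twk-42 on the opposite strand cannot be told apart, the use of strand in counting being not given in the sources used here.

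Among the 15 tested genes of fatty acid synthesis and elongation, 1 was higher (6.67%, beside 1.42% of all tested genes). This was elo-2, a fatty acid elongase that acts on palmitate, at 186 and 185 CPM in wild type and 241 and 268 CPM in hel-1 (log2 fold change 0.46 ± 0.07). The list had a median of 0.26, and with 1 library left out between 0 and 5 of its genes were higher, the most without hel-1 replicate 1. None of 12 regulators of fat synthesis was called. The 2 best expressed of them were iglr-2 at -0.13 ± 0.06 and mdt-15, a Mediator subunit that is needed for desaturase expression, at -0.05 ± 0.06. Of 48 genes of fatty acid breakdown and lipolysis, 2 were higher (4.17%, beside 1.42% of all tested genes) and none was lower. The higher ones were the neighbouring lipid-binding protein genes lbp-1 (0.83 ± 0.07) and lbp-2 (0.42 ± 0.07). The median of this list was 0.19, and it ranged from 0.04 to 0.31 with 1 library left out.

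Genes of phosphatidylcholine synthesis were also higher, and this list was drawn up after the values had been seen, so its count is a description only. Worms make phosphatidylcholine by methylating phosphoethanolamine and through the choline kinase route. Of the 10 tested genes 5 were higher (50%, beside 1.42% of all tested genes). The methyltransferase gene pmt-1 was at 153 and 137 CPM in wild type and at 238 and 283 CPM in hel-1, and pmt-2, which completes the methylation, at 430 and 390 CPM in wild type and at 594 and 627 CPM in hel-1. The choline kinase gene ckb-2 had the largest change, from a mean of 13.7 ± 3.57 CPM (SD, n = 2) in wild type to 33.9 ± 2.8 CPM in hel-1 (log2 fold change 1.31 ± 0.17, adjusted p = 0.0244). The genes pcyt-1 (0.53 ± 0.06) and cept-1 (0.61 ± 0.07), which encode later enzymes of the choline kinase route, completed the group. In none of these 5 did the groups overlap, which held for all 213 called genes. Without wild type replicate 2, and without hel-1 replicate 2, 2 of the 10 passed.

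**Figure D2:**
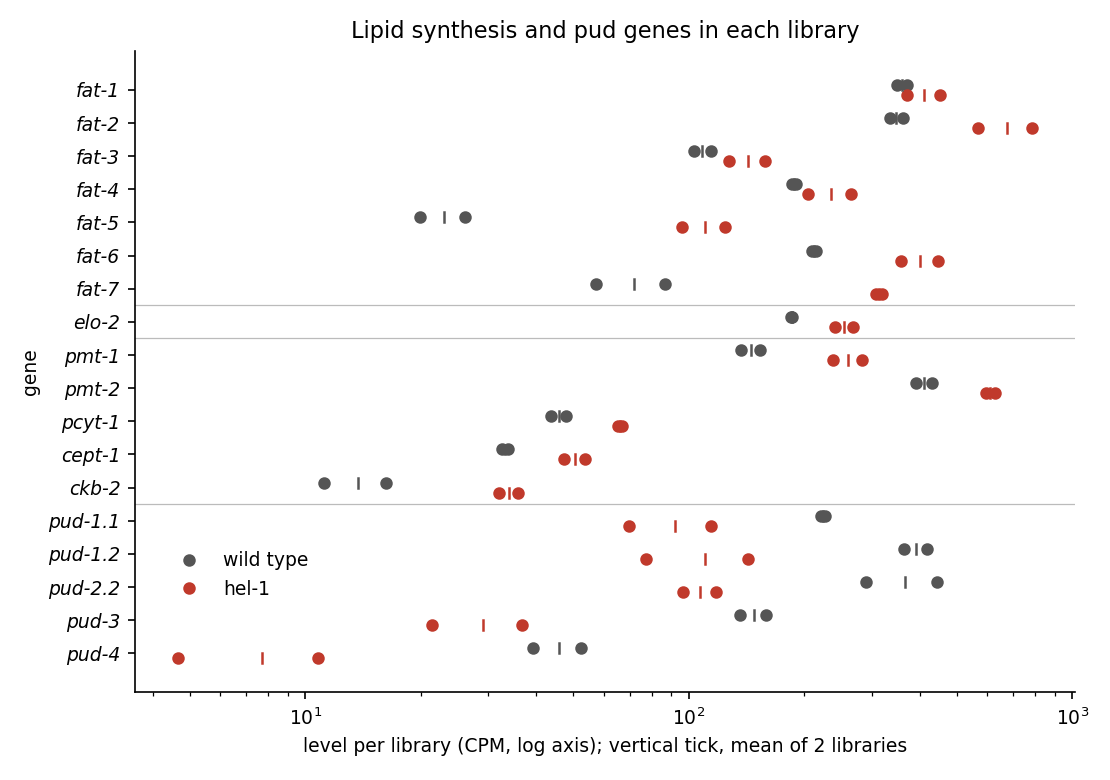
Levels (CPM, log axis) of desaturase, elongase, phosphatidylcholine synthesis and pud genes in each library, wild type in grey and hel-1 in red, with a vertical tick at the mean of 2 libraries. The hel-1 points lie to the right of the wild-type points for the lipid genes, close together for fat-1, and to the left for the 5 pud genes; for pud-2.2 the plot shows the called gene ID of 2 with this symbol.

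Of the called genes with a mean of at least 5 CPM in 1 of the groups, those with the largest fold increase were nearly silent in wild type. Larger fitted changes of genes under that level were not ranked. Y41C4A.32 (III, 11721706 to 11723607) stood at 1.45 and 4.0 CPM in wild type and at 201 and 214 CPM in hel-1, 77.0-fold higher (adjusted p = 0.000811). The gene warf-1, which encodes a small GTPase related to ADP-ribosylation factors, went from 0.61 and 0.931 CPM to 37.8 and 41.2 CPM, 51.3-fold higher (adjusted p = 0.000109). Both passed in every fit that left out 1 library. The next in size under the same rule were B0205.13, from 0.756 and 1.27 CPM to 14.2 and 14.7 CPM, and F22B8.7, from 0.61 and 0.776 CPM to 10.4 and 8.32 CPM. For these genes the spread between replicates was small beside the distance between the groups. Of the higher genes, 21 had a mean below 1 CPM in wild type.

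Other genes named for the size of their increase rose by less. cdr-4, a gene of the cadmium-responsive family, was at 4.56 and 5.93 CPM in wild type and at 37.2 and 40.0 CPM in hel-1. Its neighbour cdr-2 rose by 1.17 ± 0.14 on the log2 scale. The beta-tubulin gene tbb-6, at 0.843 and 0.9 CPM in wild type, stood at 6.89 and 5.92 CPM in hel-1. The aspartyl protease gene asp-8 (2.12 ± 0.19) and catp-3, which encodes a P-type cation ATPase (2.1 ± 0.24), rose by similar amounts, as did F53B2.8 (2.60 ± 0.30) and F53A9.8 (2.41 ± 0.32). From the autophagy list, the gene for the selective autophagy receptor SQST-1, the worm p62, was at 24 and 24.7 CPM in wild type and at 52.7 and 59.3 CPM in hel-1 (log2 fold change 1.2 ± 0.07, adjusted p = 0.00237). It was the only called member of 38 autophagy and lysosome genes (2.63%, beside 1.42% of all tested genes that were higher). Reads from 60 exon bases that warf-1 shares with nep-16 on the opposite strand cannot be told apart.

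The genes that fell were fewer and included a compact cluster. The pud genes encode small proteins first described as more abundant in dauer larvae and in daf-2 mutants. They lie together on chromosome V (2322038 to 2330930), where 6 genes were tested and 5 were lower; 2 were lower without wild type replicate 2 and 3 without wild type replicate 1. This list too was drawn up with the values known. pud-3 went from 159 and 136 CPM in wild type to 21.4 and 36.6 CPM in hel-1, 5.13-fold lower (adjusted p = 0.0114). pud-4 went from 52.2 and 39.2 CPM to 4.64 and 10.8 CPM, 6.02-fold lower (adjusted p = 0.0272). In both, the higher hel-1 library was still well under the lower wild-type library.

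The remaining pud genes exist as near-identical copies, and their division of reads is uncertain. pud-1.1 had 227 and 221 CPM in wild type and 69.7 and 114 CPM in hel-1, and pud-1.2 had 418 and 364 CPM in wild type and 77.2 and 143 CPM in hel-1. The annotation gives 2 gene IDs the symbol pud-2.2. One (WBGene00017500) was called, at 444 and 290 CPM in wild type and 118 and 96.4 CPM in hel-1. The other (WBGene00017490) was not, at 157 and 277 CPM in wild type and 16.9 and 157 CPM in hel-1. Summed over both IDs the levels were 601 and 567 CPM in wild type and 135 and 253 CPM in hel-1, so the pair was lower in hel-1 whichever way its reads were split.

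Another cluster on chromosome V (16926922 to 16930063) held 3 tested genes, all lower. They are the pseudogenes WBGene00014955, at 38 and 40.0 CPM in wild type and 3.95 and 3.02 CPM in hel-1, and WBGene00014954, at 22.9 and 25.4 CPM in wild type and 2.55 and 2.34 CPM in hel-1, and beside them Y102A5C.36. F02E9.10, on chromosome I, had 67.8 and 68.2 CPM in wild type and 17 and 17.6 CPM in hel-1, 3.93-fold lower (adjusted p = 0.000109). The other lower genes named by size were kin-35 (-1.17 ± 0.12), tcl-2 (-1.1 ± 0.15) and the C-type lectin gene clec-209 (-0.93 ± 0.09). The last is counted under 2 gene IDs with the same counts in these 4 libraries, so the 29 lower genes include it as a pair.

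Yolk proteins showed 1 called member. vit-1, a vitellogenin made in the intestine and taken up by oocytes, was at 10849 and 9444 CPM in wild type and at 5714 and 5975 CPM in hel-1, 1.74-fold lower (adjusted p = 0.0239). It drew more reads than any other called gene. It lost the call without wild type replicate 1 (adjusted p = 0.0546) and without wild type replicate 2 (adjusted p = 0.0665). The other 5 tested vitellogenin genes were not called, and the median of the 6 was -0.33. Without hel-1 replicate 1, 3 of the 6 were lower, and without hel-1 replicate 2, 4 were. Vitellogenin genes are alike in sequence, and reads may be divided among them. Of other lower genes with many reads, cpz-1, a cathepsin-like protease gene, was at 328 and 288 CPM in wild type and 210 and 225 CPM in hel-1 (-0.51 ± 0.08), and the pseudogene WBGene00018862 was at 241 and 240 CPM in wild type and 181 and 173 CPM in hel-1.

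Genes known to depend on DAF-16 were taken from lists of those it activates and those it represses. Of 49 annotated genes on the list that DAF-16 activates, 39 passed the filter, and 3 of these were higher (7.69%, beside 1.42% of all tested genes) and none lower. The median log2 fold change was 0.39, beside 0.01 over all tested genes. It was 0.29 over all tested genes from 1 to 5 CPM and 0.37 over those below 1 CPM. The list median ranged from 0.14 to 0.55 when 1 library was left out. The higher genes were fat-5 and cdr-2, given above, and gpd-2, a glyceraldehyde-3-phosphate dehydrogenase gene at 172 and 150 CPM in wild type and 221 and 245 CPM in hel-1 (0.53 ± 0.09). gpd-2 and its neighbour gpd-3 (0.49 ± 0.08) are near-identical copies and cannot be separated with confidence. The count of higher genes ranged from 1 to 9 when 1 library was left out, with 1 lower gene in 1 of these fits. It was lowest without wild type replicate 2 and highest without hel-1 replicate 1.

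Well-known targets, chosen for their role and with their values already seen, did not pass the test. The manganese superoxide dismutase gene sod-3 was at 1.51 and 1.55 CPM in wild type and 2.39 and 2.46 CPM in hel-1 (0.66 ± 0.22, adjusted p = 0.181). The DAF-16 target dod-3 was at 1.63 and 2.11 CPM in wild type and at 1.72 and 5.3 CPM in hel-1, and lys-7, a lysozyme gene, at 12.7 and 12 CPM against 17.2 and 50.4 CPM. The hel-1 replicates of dod-3 and lys-7 differed from each other by more than the group means did. The small heat shock gene hsp-12.6 and the metallothionein gene mtl-1 did not pass the filter. On the list of genes that DAF-16 represses, 1 of 14 was higher (7.14%, beside 1.42% of all tested genes) and none lower. It was dod-22, an immune-related gene, at 0.988 and 0.652 CPM in wild type and at 3.31 and 3.21 CPM in hel-1. None of 21 insulin/IGF-1 pathway genes, 25 longevity and stress transcription factor genes or 8 tested insulin-like peptide genes was called.

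The machinery that HEL-1 belongs to showed small shared shifts below the threshold. None of 21 mRNA export genes, 34 DEAD-box and related helicase genes, 9 nonsense-mediated decay genes or 47 Argonaute and small RNA pathway genes was called. Their medians were -0.11, -0.13, -0.13 and -0.10. All 34 helicase genes had a fold change below 0, and in 27 of them both hel-1 libraries were below both wild-type libraries, a state that 30.5% of all tested genes had. Without hel-1 replicate 1, 3 of the 34 were lower. Those with the most reads were cgh-1, a germline helicase gene at 4334 and 4424 CPM in wild type and 3909 and 3707 CPM in hel-1 (-0.20 ± 0.08, adjusted p = 0.213), and inf-1, which encodes the translation initiation factor eIF4A (-0.15 ± 0.08). Of 53 splicing factor genes 1 was higher (1.89%, near the 1.42% of all tested genes). It was hrpa-2, an hnRNP gene at 44.9 and 42.8 CPM in wild type and 58.4 and 65.1 CPM in hel-1. A shift of the size of the medians above was shared by abundant genes in general. The median log2 fold change was -0.10 over the 3621 tested genes with a mean of 50 CPM or more and 0.01 over the 4201 from 5 to 50 CPM. It was 0.29 over the 2685 from 1 to 5 CPM and 0.37 over the 2481 below 1 CPM. The part of this dependence on level in the results for low genes was not tested.

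**Figure D3:**
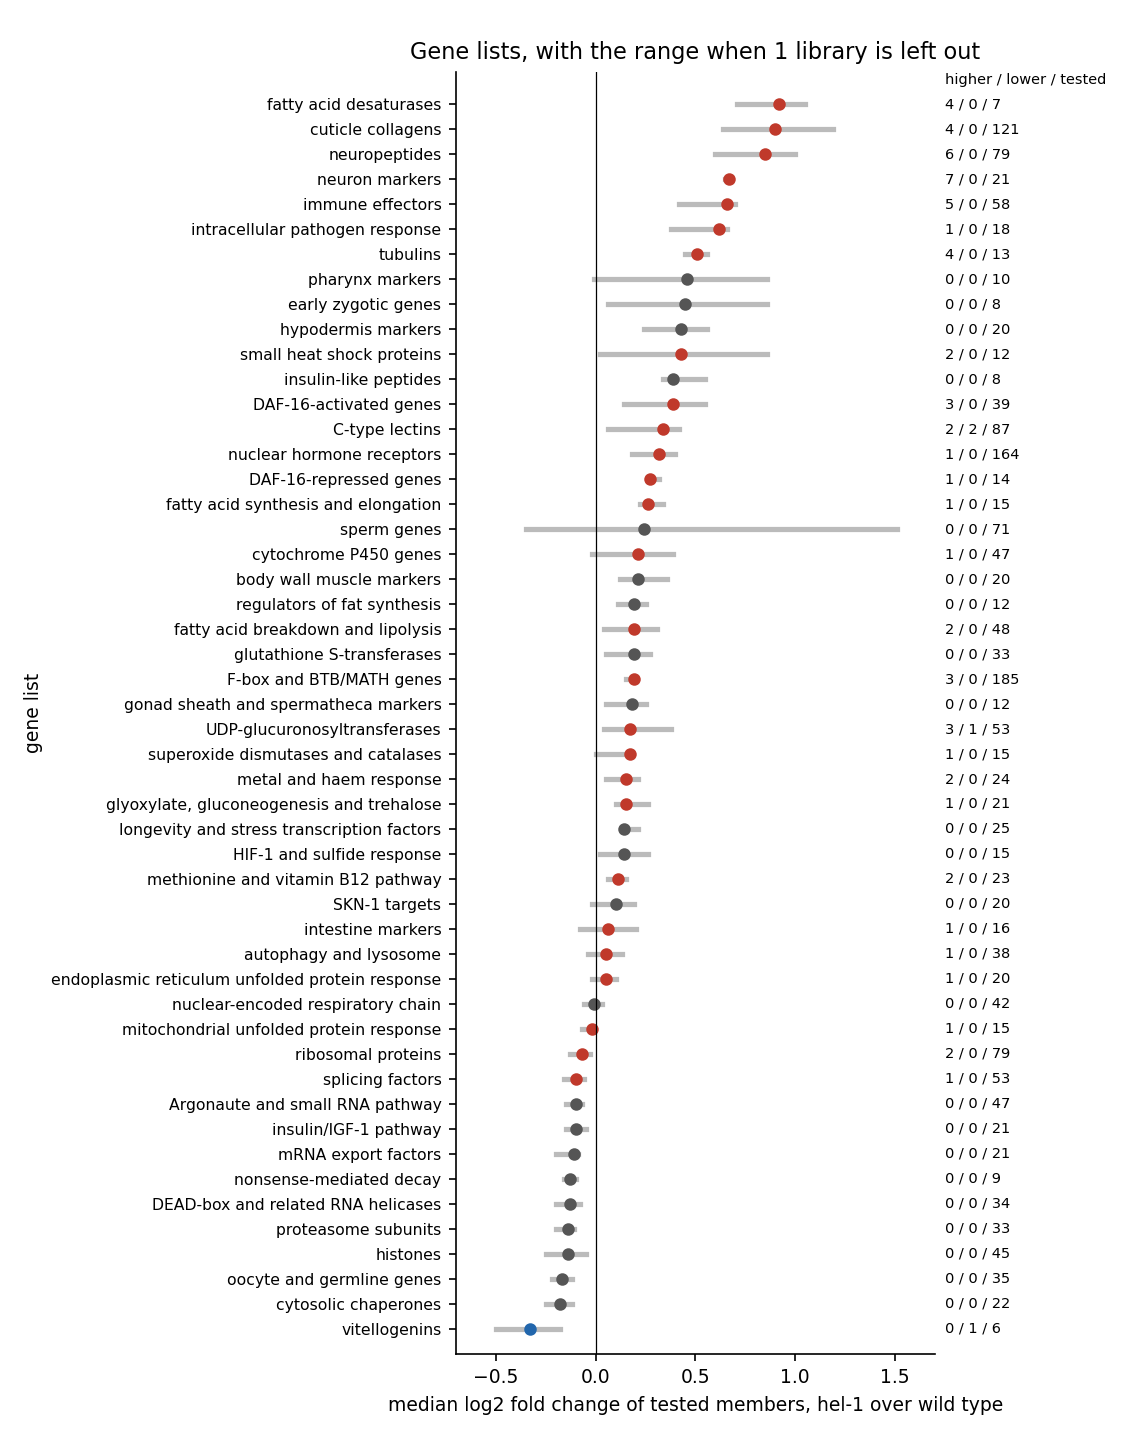
Median log2 fold change of the tested members of each of the 50 gene lists (points), with the range of that median when 1 library is left out (grey bars). Numbers at the right give members higher, lower and tested; red points have at least 1 higher member, the blue point has 1 lower member only, and dark points have none called.

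Stress and detoxification genes were grouped by response. Of 12 small heat shock protein genes 2 were higher (16.7%, beside 1.42% of all tested genes), hsp-17 (1.4 ± 0.18) and hsp-25 (0.42 ± 0.06), with a list median of 0.43 that ranged from 0.02 to 0.86 when 1 library was left out. The count of higher genes then ranged from 0, without hel-1 replicate 2, to 4, without wild type replicate 1. None of 22 cytosolic chaperone genes was called, and hsp-1, the constitutive Hsp70 gene, stood at -0.21 ± 0.09. For the unfolded protein responses, tbb-6 was the called member of 15 mitochondrial genes and pdi-2, a protein disulfide isomerase gene at 555 and 565 CPM in wild type and 716 and 788 CPM in hel-1, that of 20 endoplasmic reticulum genes. Among enzymes of drug metabolism, cyp-33C8 (1.53 ± 0.16) was the called member of 47 cytochrome P450 genes. Of 53 UDP-glucuronosyltransferase genes, ugt-19 (1.82 ± 0.19), ugt-2 (1.62 ± 0.20) and ugt-62 (1.01 ± 0.13) rose, 5.66% of the list, and ugt-22 fell (-0.59 ± 0.06). The count that rose was 1 without replicate 2 of either genotype. None of 33 glutathione S-transferase genes, 20 SKN-1 target genes or 15 HIF-1 and sulfide response genes was called. hif-1 itself was nearest to the threshold of these, 0.31 ± 0.06 (adjusted p = 0.0577). The methionine sulfoxide reductase gene msra-1, on the list of antioxidant enzymes, rose by 1.13 ± 0.19.

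Of 58 immune effector genes 5 were higher (8.62%, beside 1.42% of all tested genes) and none lower. The list median was 0.66, beside 0.01 over all tested genes, 0.29 over those from 1 to 5 CPM and 0.37 over those below 1 CPM. It ranged from 0.42 to 0.70 with 1 library left out. The higher genes numbered 3 without wild type replicate 1, 1 without wild type replicate 2, 13 without hel-1 replicate 1 and 2 without hel-1 replicate 2, and 1 gene was lower without wild type replicate 1 and 2 without hel-1 replicate 2. irg-8, an infection response gene, was at 73.5 and 70.5 CPM in wild type and at 139 and 161 CPM in hel-1 (1.05 ± 0.08, adjusted p = 0.00506). irg-7, which is needed for resistance to a bacterial pathogen, was at 255 and 212 CPM in wild type and 398 and 485 CPM in hel-1. The others were irg-5 (1.08 ± 0.17), irg-2 (1.74 ± 0.29) and the antimicrobial peptide gene nlp-31 (1.29 ± 0.19). Of 18 genes of the intracellular pathogen response skr-3 was higher (1.08 ± 0.14). Among 87 C-type lectin genes clec-47 (1.24 ± 0.17) and clec-52 (1.42 ± 0.22) were higher and the pair under clec-209 was lower; the higher lectins numbered 0 without wild type replicate 2 and 8 without hel-1 replicate 1. Of 185 F-box and BTB/MATH genes, fbxa-192 (1.53 ± 0.11), fbxc-58 (2.09 ± 0.24) and math-4 (1.21 ± 0.20) were higher. The shares of higher genes, 2.3% of the lectins and 1.62% of the F-box and BTB/MATH genes, were near the 1.42% of all tested genes.

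Several neuronal transcripts were higher in hel-1. These are RNAs from whole worms, so fewer or more cells of a type cannot be told apart from less or more RNA per cell. Of 28 annotated neuron markers 21 passed the filter, and 7 were higher (33.3%, beside 1.42% of all tested genes) and none lower. All 21 had both hel-1 libraries above both wild-type libraries, a state that 30.0% of all tested genes had. The median was 0.67, beside 0.01 over all tested genes, 0.29 over those from 1 to 5 CPM and 0.37 over those below 1 CPM. The summed level of the 28 was 218 and 212 CPM in wild type and 268 and 276 CPM in hel-1, and none was at 0 in all 4 libraries. With replicate 1 of either genotype left out 4 of the 21 passed the test, and with replicate 2 of either left out none did.

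The called neuron markers fell in a few functions. mec-7, a beta-tubulin gene of touch receptor neurons, was at 4.56 and 3.82 CPM in wild type and at 10.3 and 9.35 CPM in hel-1 (1.23 ± 0.17, adjusted p = 0.0302). mec-17, an alpha-tubulin acetyltransferase gene of the same neurons, rose by 1.2 ± 0.20 but shares 51 exon bases with arf-5 on the opposite strand. unc-13, needed to prime synaptic vesicles, was at 4.74 and 4.75 CPM in wild type and at 8.88 and 10.5 CPM in hel-1. The other 4 belong to the making of neuropeptides: egl-3 (0.77 ± 0.13), a proprotein convertase gene, egl-21 (0.61 ± 0.10), a carboxypeptidase gene, sbt-1 (0.85 ± 0.14), which encodes a helper of the convertase, and ida-1 (1.13 ± 0.14), which encodes a dense core vesicle protein. Markers that are active in all neurons did not all move, and the following were picked after their values were seen: unc-119 stood at 5.78 and 5.68 CPM in wild type and 5.94 and 6.48 CPM in hel-1, and snb-1, the synaptobrevin gene, which is widely expressed, at 101 and 102 CPM against 105 and 107 CPM.

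Of 105 annotated neuropeptide genes 79 passed the filter, and 6 were higher (7.59%, beside 1.42% of all tested genes) and none lower. The list was taken by gene name. Among the 6 is nlp-31, the antimicrobial peptide gene counted above with the immune effectors, so the count is not of neuronal genes alone. The median was 0.85, beside 0.01 over all tested genes and 0.29 over those from 1 to 5 CPM. With 1 library left out 1 to 3 were higher, the fewest without replicate 2 of either genotype. nlp-20 stood at 4.71 and 4.47 CPM in wild type and at 12.9 and 12.9 CPM in hel-1 (1.49 ± 0.14, adjusted p = 0.0108) and passed in every fit that left out 1 library. nlp-12 was at 1.83 and 1.43 CPM in wild type and 4.83 and 4.49 CPM in hel-1, and nlp-43 at 0.581 and 0.621 CPM against 2.2 and 2.24 CPM. The summed level of all 105 was 260 and 266 CPM in wild type and 328 and 389 CPM in hel-1, and nlp-22, nlp-32 and flp-23 were at 0 in all 4 libraries. Among 13 tubulin genes, tba-4 (0.51 ± 0.06) and tba-7 (1.47 ± 0.21) rose beside mec-7 and tbb-6; without wild type replicate 2, 1 tubulin gene was higher. The tubulin genes tba-1 (-0.20 ± 0.08) and tbb-2 (-0.14 ± 0.07), named after their values were seen, were not called. The higher tubulin genes made up 30.8% of those tested, beside 1.42% of all tested genes.

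Markers of other tissues were measured with the same test. Of 20 hypodermis markers, 20 body wall muscle markers, 10 tested pharynx markers and 12 gonad sheath and spermatheca markers none was called. The medians were 0.43, 0.21, 0.46 and 0.18. With 1 library left out they ranged from 0.24 to 0.56, 0.12 to 0.36, -0.01 to 0.86 and 0.05 to 0.25. Over all tested genes the median was 0.29 from 1 to 5 CPM and 0.37 below 1 CPM. The summed pharynx level was 23.3 and 15.4 CPM in wild type and 19.4 and 26.1 CPM in hel-1. Of 16 intestine markers the acid phosphatase gene pho-1 was higher (0.50 ± 0.06), 6.25% of the list beside 1.42% of all tested genes. The summed intestine level was 34596 and 33774 CPM in wild type and 28439 and 36558 CPM in hel-1. None of 35 oocyte and germline genes was called. All 35 had a fold change below 0, with a median of -0.17, and their summed level was 24969 and 26622 CPM in wild type and 23458 and 22122 CPM in hel-1. Of 8 tested early zygotic genes, which mark embryos, none was called.

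Cuticle collagen and sperm genes differed between the wild-type replicates, and some other lists did so by less. The median of replicate 2 minus replicate 1, on log2(CPM + 1), was -0.37 for pharynx, -0.31 for early zygotic and -0.28 for hypodermis genes. It was -0.21 for small heat shock, -0.18 for gonad sheath and spermatheca and -0.17 for body wall muscle genes. For intestine markers it was 0.03, and for oocyte and germline genes 0.08. Of 121 tested cuticle collagen genes 4 were higher (3.31%, beside 1.42% of all tested genes). They were col-34 (1.47 ± 0.23), col-38 (1.16 ± 0.17), col-63 (1.86 ± 0.29) and col-118 (0.76 ± 0.11). The median of the 121 genes was 0.90. Replicate 2 of the wild type was below replicate 1 by a median of -0.40 over these genes, and the count of higher collagens was 44 without wild type replicate 1, 1 without wild type replicate 2 and 0 without either hel-1 replicate. None of 71 tested sperm genes was called, and 24 were higher without wild type replicate 1. Their median was 0.24, with -0.35 without wild type replicate 2 and 1.51 without wild type replicate 1, and replicate 2 of the wild type was below replicate 1 by a median of -1.44.

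Housekeeping groups were close to their wild-type levels. Of 79 ribosomal protein genes, rpl-11.2 (0.54 ± 0.08) and rpl-25.1 (0.44 ± 0.07) were higher, and the median was -0.07. These are 2.53% of the list, near the 1.42% of all tested genes. None of 33 proteasome subunit genes was called; in all 33 both hel-1 libraries were below both wild-type libraries, as in 30.5% of all tested genes, with a median of -0.14. Respiratory chain genes of the nuclear genome had a median of -0.01 with none of 42 called, and histone genes a median of -0.14 with none of 45 called. In central metabolism aco-1, the cytosolic aconitase gene, was at 160 and 145 CPM in wild type and 219 and 229 CPM in hel-1 (0.55 ± 0.07), the only called member of 21 genes of the glyoxylate, gluconeogenesis and trehalose list. Among nuclear hormone receptor genes nhr-97 (0.50 ± 0.07) was the called member of 164. T25B9.9, named for its number of reads, was at 236 and 242 CPM in wild type and at 303 and 315 CPM in hel-1.

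The share of called genes differed between chromosomes. On the X chromosome 44 of 1829 tested genes were higher (2.41%), beside 140 of 11135 on the autosomes (1.26%). The shares were 2.79 and 2.02% without wild type replicate 1, 5.08 and 2.66% without hel-1 replicate 1 and 0.601 and 0.431% without hel-1 replicate 2, but 0.328 and 0.359% without wild type replicate 2, where the share on X was no longer the higher one. The median log2 fold change was 0.18 on X and -0.01 on the autosomes. It stayed between 0.15 and 0.21 on X when 1 library was left out, while the autosomes stayed between -0.03 and -0.01. Chromosomes V and IV held 51 and 43 higher genes, shares of 2.16 and 1.94% that were near that of X. Chromosomes I and III held 12 and 13 (0.546 and 0.611%). In both directions together, 2.58% of tested genes were called on V and 2.57% on X. Within 1 Mb of hel-1, 4 of 353 tested genes were called (1.13%): the translation factor gene iff-2, col-38 and msra-1, which were higher, and the long non-coding RNA gene Y9D1A.1, which was lower. That share is under the 1.64% of all tested genes. Of the 213 called genes 206 are protein-coding, 6 are pseudogenes and 1 is a long intergenic non-coding RNA gene.

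**Figure D4:**
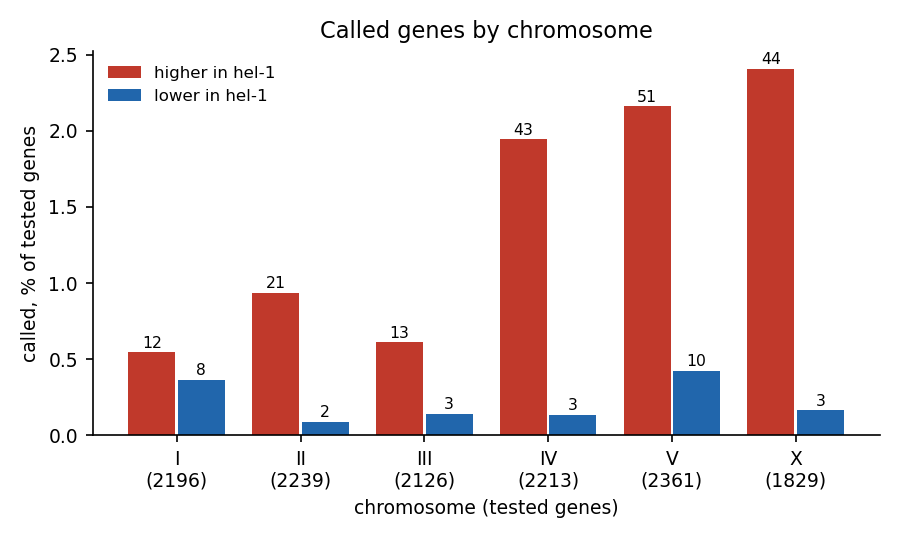
Share of tested genes on each chromosome that were higher (red) or lower (blue) in hel-1, with the number of called genes above each bar and of tested genes under it. Higher genes take 2.41% of chromosome X, 2.16% of V and 1.94% of IV, and smaller shares of chromosomes I, II and III. The 13 tested mitochondrial genes, with none called, are not shown.

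The same mutation was then followed in the daf-2 background, in libraries that had no part in calling the 213 genes. Replicate 2 of daf-2 stands apart from replicate 1: the muscle myosin gene unc-54, named after its values were seen, was at 339 CPM in replicate 1 and 1102 CPM in replicate 2. The counts below are therefore given with and without it. The deposited tables of both daf-2 genotypes separate their columns by tabs and those of wild type and hel-1 by spaces. A difference between these sets of files cannot be told apart from the daf-2 genotype. With the double mutant set against daf-2, no gene of 12991 was called (0.0%) by edgeR's test, while 1263 were past an unadjusted p of 0.05 (9.72%), 152 higher (1.17%) and 1111 lower (8.55%). Without daf-2 replicate 2, 152 genes were called, and 525 were higher and 1026 lower at that unadjusted p.

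The genes that were higher in hel-1 than in wild type were mostly not higher in the double mutant than in daf-2. Of the 184 higher genes 179 were tested there. Their fold change was above 0 in 27 and below 0 in 152, with a median of -0.43. None of the 179 was higher at an unadjusted p under 0.05 and 62 were lower. Without daf-2 replicate 2 the signs were 50 above and 129 below, with a median of -0.19, and 3 were higher and 60 lower at that p. Over all genes tested in both backgrounds 49.2% had a fold change above 0, and 51.1% without that library. Across these genes the hel-1 effects in wild type and in daf-2 were inversely correlated (Pearson r = -0.51, or -0.22 without that library). A lean below 0 among genes chosen for a rise in hel-1 is therefore not particular to the called genes. Of the 29 lower genes 28 were tested, 12 lower and 16 higher, or 16 lower and 12 higher without that library.

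The difference between backgrounds was tested itself, as the hel-1 effect in daf-2 minus the hel-1 effect in wild type over all 8 libraries. It passed for 113 of 13722 genes (0.823%), of which 103 had a difference below 0 (0.751%) and 10 a difference above 0 (0.0729%). Without daf-2 replicate 2 there were 125 below and 10 above. Of the 184 higher genes 67 were among the 103, and of the 29 lower genes 7 were among the 10 above 0, meaning a smaller fall in daf-2 or a rise. These genes were chosen for their change in wild type, which is part of the difference, so the counts are a description. Without daf-2 replicate 2 the counts of higher and lower genes were 79 and 8.

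**Figure D5:**
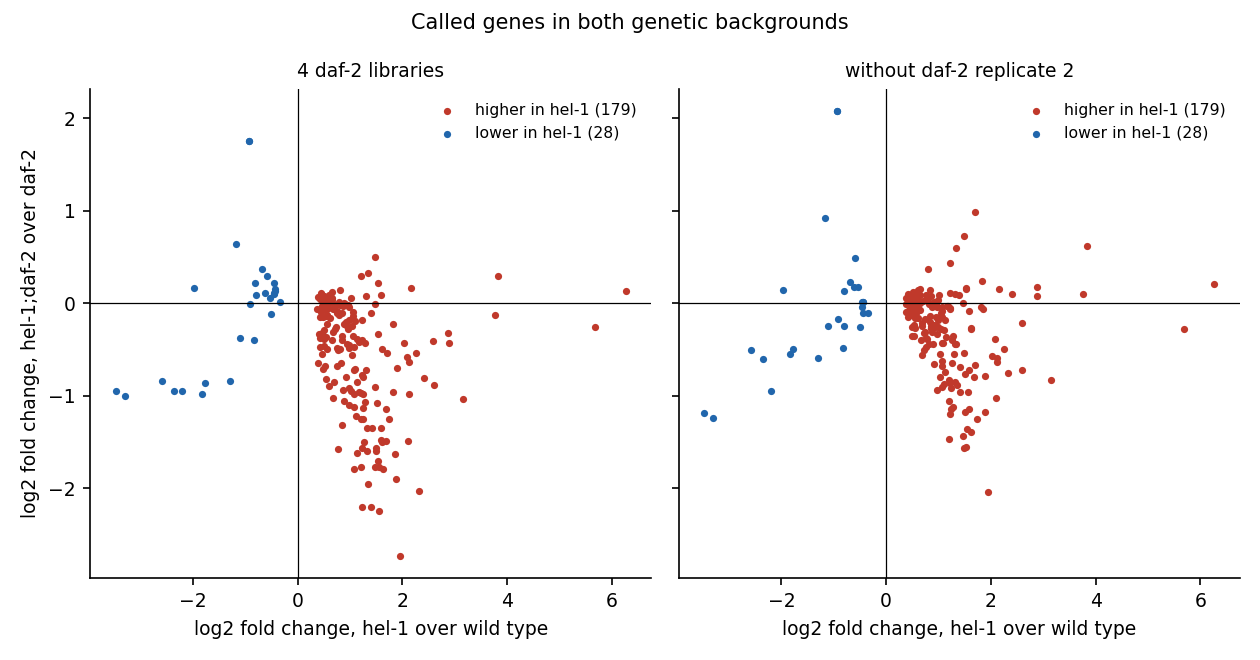
Log2 fold change of hel-1;daf-2 over daf-2 against that of hel-1 over wild type for called genes, with all libraries (left) and without daf-2 replicate 2 (right). Most of the 179 higher genes (red) lie below the horizontal line at 0. Among the 28 lower genes (blue) WBGene00014955, WBGene00014954, pud-4 and pud-3 lie below it too, while F02E9.10 lies above it.

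Single genes show how the backgrounds differ. fat-5 was at 86.5 and 89.8 CPM in daf-2, close to its level in hel-1, and at 67.2 and 55.6 CPM in hel-1;daf-2; the difference of effects was -2.78 ± 0.23 (adjusted p = 0.00565), or -2.76 without daf-2 replicate 2 (adjusted p = 0.0127). fat-7 was at 13 and 12.5 CPM in daf-2 and at 11.9 and 4.8 CPM in hel-1;daf-2, below its wild-type level in all 4 libraries (difference -2.73 ± 0.48, adjusted p = 0.0558, or -2.76 and 0.0727 without that library). sqst-1 was at 54.4 and 63.6 CPM in daf-2 and at 30.2 and 30.9 CPM in hel-1;daf-2, so the mutation went with a higher level in wild type and a lower level in daf-2 (difference -2.15 ± 0.14, adjusted p = 0.00137, or -2.04 and 0.00181 without that library). F22B8.7 was at 13.1 and 17 CPM in daf-2 and at 13.4 and 14.4 CPM in hel-1;daf-2, above its level in hel-1 alone.

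Other genes were changed in the hel-1 libraries and in neither daf-2 genotype. Y41C4A.32 stood at 0.851 and 0.923 CPM in daf-2 and at 0.751 and 1.22 CPM in hel-1;daf-2, and warf-1 at 0.504 and 0.474 CPM and at 0.361 and 0.471 CPM. Neither gene was raised in the double mutant, which carries the same hel-1 allele. F02E9.10 stood at 62.5 and 58.5 CPM in daf-2 and at 68.9 and 68.7 CPM in hel-1;daf-2, near its wild-type level (difference 2.16 ± 0.09, adjusted p = 0.000171, or 2.1 and 0.000207 without daf-2 replicate 2). These 3 genes therefore separate the hel-1 strain from the 3 other strains. The pud genes behaved otherwise: pud-3 was at 278 and 416 CPM in daf-2 and at 121 and 245 CPM in hel-1;daf-2, a change of -0.95 ± 0.38 on the log2 scale that was not past the threshold, and its difference of effects did not pass the test (1.43 ± 0.51, adjusted p = 0.148). Without daf-2 replicate 2 these were -0.6 and 1.74 (adjusted p = 0.174).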

How the data were processed

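The deposited values are expected counts per gene, 1 table per library, per the file headers. Per the submitters' processing notes, RSEM 1.3.1, HTSeq, Bowtie, TopHat2, cutadapt, FastQC and edgeR were in use, with the builds ce11 and WBcel235; the aligner behind the counts and the use of strand were not given in the sources used here. RNA from whole day 1 adults was sequenced on a HiSeq instrument, per the labels' protocols.

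Expected counts were rounded; between 2.54 and 2.79% of values in the 4 libraries were not whole. Of 46904 genes, 46817 are in the WBcel235 annotation. The 4 libraries were fitted alone by edgeR 4.0.16 (quasi-likelihood F test, R 4.3.3) after TMM scaling and filterByExpr (minimum count 10, 12988 genes kept, biological coefficient of variation 0.111, 2 residual degrees of freedom). A gene was called at a Benjamini-Hochberg adjusted p under 0.05 over all tested genes. Values after ± are standard errors of log2 fold changes unless marked SD. They were derived from the test, as the absolute log2 fold change divided by the square root of F. CPM were scaled by TMM over all 8 libraries. The daf-2 and hel-1;daf-2 libraries were fitted in the same way (12991 genes, coefficient 0.21), and the difference of effects in 1 fit of all 8 libraries (13722 genes). Alternatives were DESeq2 1.42.0, its size factors in edgeR, other filters, a replicate block, all 8 libraries in the fit and each library left out.

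The comparison and its lists were chosen with earlier results of these data known, so counts over lists are descriptions and no list was tested as a set. Named genes are hel-1, daf-2 and daf-16; up to 12 called genes each way by size of fold, given no overlap and a mean of 5 CPM or more in 1 group; the 6 called genes per direction with the highest level; up to 4 called members per list or the 2 best expressed where none was called; all desaturases; and called genes within 1 Mb of hel-1. Other genes were named after their values were seen: Y102A5C.36, gpd-3, irg-2, mec-17, egl-3, egl-21 and those marked as such. Of called genes named in the text, fat-5, warf-1, tba-7, hsp-17, hsp-25, haly-1, mec-17, msra-1, sbt-1, cytb-5.1, pho-1, nhr-97, dlk-1 and ugt-22 share at least 20 exon bases with a gene on the opposite strand, and gpd-2, uroc-1, acs-1 and ugt-22 with a gene on the same strand; reads there cannot be told apart. No sequence was used here.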

Additional observations from a re-analysis of the deposited data

Results flagged for a closer look

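For 32 named genes the hel-1 effect differed between the backgrounds, tested as the effect in daf-2 minus the effect in wild type over all 8 libraries with edgeR (adjusted p under 0.05 over 13722 genes). They were named for their change in wild type, which enters the difference. All differences are on the log2 scale.

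Of genes raised in hel-1, the difference was -6.12 for Y41C4A.32, -5.91 for warf-1, -3.52 for B0205.13 and -3.87 for F22B8.7. It was -3.28 for cdr-4, -3.17 for tbb-6, -3.09 for asp-8 and -3.56 for catp-3. Of the desaturase genes it was -2.78 for fat-5 and -1.11 for fat-6. The autophagy receptor gene sqst-1 had -2.15.

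Among immune and detoxification genes it was -1.69 for irg-7, -1.39 for irg-8, -2.21 for clec-47, -2.74 for clec-52, -2.02 for ugt-19 and -2.1 for ugt-2. F-box and MATH genes had -1.29 (fbxa-192), -2.65 (fbxc-58) and -2.44 (math-4). Neuronal genes had -2.76 (mec-7), -1.95 (unc-13), -3.07 (nlp-20), -3.75 (nlp-43) and -2.57 (nlp-12). The collagen genes col-118 and col-34 had -1.42 and -3.22, and iff-2 had -0.67.

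Of genes lowered in hel-1, the difference was 2.54 for WBGene00014955, 2.31 for WBGene00014954, 2.16 for F02E9.10 and 1.83 for kin-35.

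Without daf-2 replicate 2, which stands apart from its partner, all 32 kept their sign, and 28 stayed past the threshold. The exceptions were Y41C4A.32 (adjusted p = 0.0613), B0205.13 (adjusted p = 0.106), ugt-2 (adjusted p = 0.056) and irg-8 (adjusted p = 0.0543).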

How the results depend on the processing

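The count of higher and lower genes, 184 and 29, was 50 and 7 with all 8 libraries in the fit, 467 and 184 with DESeq2, and 715 and 85 with no filter on low counts; leaving out 1 library gave 46 to 395 higher and 13 to 86 lower. Higher desaturases ranged from 2 to 6 with 1 library left out. DAF-16-activated genes that were higher, 3 in the reported fit, numbered 1 with all 8 libraries, 5 with DESeq2, 7 with no filter and 1 to 9 with 1 library left out; lower ones, 0 in the reported fit, numbered 1 with DESeq2 and with no filter and 0 to 1 with 1 library left out. For the double mutant against daf-2, called genes numbered 0 in the reported fit and 108 to 7105 with 1 library left out, and 39 of the 207 called genes tested there had the same sign as in wild type, 45 to 66 with 1 library left out. The cause of these shifts was not tested; a left-out library leaves 1 sample in its group, which is then taken to vary like the other group. Labels give the genotypes the same replicate numbers without saying that a number marks a shared batch, and same-numbered libraries deviated together at r = 0.226 (wild type and hel-1) and 0.192 (daf-2 pair). With a replicate block, 1044 genes were higher and 159 lower, 12 DAF-16-activated genes were higher and 1 lower, and 566 genes were called in the daf-2 background. None of the named genes reversed: of 1260 values under alternatives 1044 kept their call, 191 lost it and 25 gained it. Of 500 list medians 110 moved by more than the spread between replicates. DESeq2 called 181 of the 184 and 29 of the 29. Genes under a few CPM rest on few counts.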

Other observations

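Some called genes share a known pathway, and those given here are outside the lists except tbb-6, which was reported above. They were picked after their values were seen and carry no test as groups. Of 13 genes of the DLK-1 stress kinase pathway and related MAP kinases, 6 were higher (46.2%, beside 1.42% of all tested genes) and none lower. The median log2 fold change was 0.44, and 0.35 to 0.49 with 1 library left out. The kinase gene dlk-1 was at 22.9 and 22.7 CPM in wild type and at 33.0 and 30.9 CPM in hel-1, and cebp-1, a transcription factor gene that acts downstream of it, at 4.97 and 4.94 CPM and at 9.31 and 9.82 CPM. The others were tbb-6, nipi-3 (0.47 ± 0.07), kgb-2 (1.89 ± 0.31) and sma-5 (0.68 ± 0.11). The kinase genes mkk-4 (-0.08 ± 0.14) and pmk-3 (0.44 ± 0.14) between them were not called. dlk-1 shares 96 exon bases with mec-19 on the opposite strand, and dlk-1, cebp-1 and kgb-2 passed in none of the fits that left out 1 library.

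Of 3 listed genes of histidine breakdown 2 were higher (66.7%, beside 1.42% of all tested genes) and amdh-1 was not called (0.61 ± 0.23, adjusted p = 0.206). haly-1, the histidine ammonia-lyase gene, was at 22.9 and 16 CPM in wild type and at 52 and 45.3 CPM in hel-1, and uroc-1, which encodes urocanate hydratase, at 33.2 and 27.6 CPM in hel-1, a log2 fold change of 1.27 ± 0.15. Both passed in every fit that left out 1 library. Lipid genes outside the lists also rose, among them the acyl-CoA synthetase gene acs-1 (0.68 ± 0.08), the serine palmitoyltransferase gene sptl-2 (0.75 ± 0.09), the fatty acyl-CoA reductase gene fard-1 (0.65 ± 0.07) and the cytochrome b5 gene cytb-5.1 (0.58 ± 0.08). The histone methyltransferase gene lin-59 was at 53.9 and 56.7 CPM in wild type and at 108 and 109 CPM in hel-1 (0.97 ± 0.05, adjusted p = 0.00163).

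A few called genes rest on very few reads in wild type. C24H11.2 had 0 counts there and 40 in hel-1, at least 6.35-fold higher against a floor of 3 counts per library. sdz-35 had 2 counts in wild type and 118 in hel-1, a ratio of 56.6 with a counting interval of 15.3 to 473.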
